A study of Mus musculus with 8 samples.

Results

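The endoplasmic reticulum unfolded protein response was followed through 31 genes in mouse morulae and blastocysts after knockdown of Smarca5, the gene of the ATP-dependent nucleosome-sliding enzyme SNF2H. The genes were taken by symbol from a list made for this response: 4 sensors and transducers, 14 chaperones and folding enzymes known as targets of XBP1 or ATF6, 7 genes of endoplasmic reticulum-associated degradation, and 6 genes downstream of PERK. The list was chosen with earlier results of these data known. All 31 were among the 20348 genes of the blastocyst table and the 19485 genes of the morula table. All 31 also reached a mean of 10 over the 4 libraries of each table, as did 13651 genes in blastocysts and 13404 in morulae. Chac1 in blastocysts passed this minimum only through the knockdown libraries, since its mean in the controls was 7.55.

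The groups were KD blastocysts, NC blastocysts, KD morulae and NC morulae, with 2 libraries each and 20 pooled embryos in every library. The labels call the treated embryos KD and the controls NC, and the way in which the knockdown was made, the strain and what NC stands for are not given in the sources used here. Embryonic days 3.75 and 4.25 are named for the collection without a link to a stage. Values are the normalized abundance that the authors deposited, scaled within a stage and not between stages, so levels are set against each other only within a stage. Every library is RNA from whole embryos, in which fewer cells of a type and less RNA per cell cannot be told apart.

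Proteins that enter the secretory pathway fold in the endoplasmic reticulum, where the chaperone BiP (Hspa5) binds unfolded chains. When these accumulate, 3 membrane sensors respond: IRE1 (Ern1) splices the Xbp1 transcript, ATF6 is cut to release a transcription factor, and PERK (Eif2ak3) phosphorylates the translation factor eIF2alpha. XBP1 and cleaved ATF6 raise transcription of chaperones and degradation factors, while PERK slows translation and favours that of ATF4, which acts on Ddit3, Trib3, Chac1 and other stress genes. The same machinery serves secretory cells without overt stress, among them the primitive endoderm of the blastocyst, which secretes basement membrane.

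Some promoters of the genes hold letters that these factors are known to read. The 5 shown belong to genes on which the results below turn or which differ in their motifs. RefSeq promoters (GRCm38.p6) were at hand for 27 of the 31 genes. The 250 bases upstream of each start were searched on both strands for the endoplasmic reticulum stress element (CCAAT and CCACG with 9 bases between them), for its second form (ATTGG and CCACG with 1 base between them), for the unfolded protein response element core TGACGTGG and for the amino acid response core TGATGNAA. Below, the 220 bases before the start are written 5′ to 3′ on the gene's strand, with every match in capitals.
Hspa5: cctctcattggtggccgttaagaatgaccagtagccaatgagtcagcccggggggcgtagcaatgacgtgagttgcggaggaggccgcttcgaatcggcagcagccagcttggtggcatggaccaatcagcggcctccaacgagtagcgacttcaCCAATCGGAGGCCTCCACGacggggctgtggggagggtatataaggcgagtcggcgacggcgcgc
Hsp90b1: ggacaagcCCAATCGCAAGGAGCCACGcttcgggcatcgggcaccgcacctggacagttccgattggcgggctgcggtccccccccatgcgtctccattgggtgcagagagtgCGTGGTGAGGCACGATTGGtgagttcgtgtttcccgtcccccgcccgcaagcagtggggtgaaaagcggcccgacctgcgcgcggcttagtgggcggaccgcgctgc
Pdia6: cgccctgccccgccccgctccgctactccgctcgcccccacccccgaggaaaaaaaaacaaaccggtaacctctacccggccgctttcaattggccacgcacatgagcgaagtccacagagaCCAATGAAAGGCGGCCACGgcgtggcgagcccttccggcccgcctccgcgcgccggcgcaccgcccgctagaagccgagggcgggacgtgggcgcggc
Herpud1: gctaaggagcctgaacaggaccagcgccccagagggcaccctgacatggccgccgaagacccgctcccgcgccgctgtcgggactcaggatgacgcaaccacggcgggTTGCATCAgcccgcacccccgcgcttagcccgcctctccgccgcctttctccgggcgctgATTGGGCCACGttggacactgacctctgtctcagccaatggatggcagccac
Chac1: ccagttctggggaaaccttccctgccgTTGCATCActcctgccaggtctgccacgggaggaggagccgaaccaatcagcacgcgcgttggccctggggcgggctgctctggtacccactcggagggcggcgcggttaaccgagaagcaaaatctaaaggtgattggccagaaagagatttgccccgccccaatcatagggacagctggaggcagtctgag
The Hspa5 stretch is chr2:34771870-34772089 on the plus strand and Hsp90b1 is chr10:86705445-86705664 on the minus strand. Pdia6 is chr12:17266369-17266588, Herpud1 is chr8:94386209-94386428 and Chac1 is chr2:119351022-119351241, all on the plus strand. Hspa5 has an exact match to the stress element at bases -65 to -47 from the RefSeq start and Pdia6 at -98 to -80. Gene positions given below are from GENCODE vM21 instead. There the Hspa5 gene begins at 34771970, inside the stretch shown and before the match. Hsp90b1 has a pair, at -212 to -194 and, on the opposite strand, at -107 to -89. Herpud1 holds the second form at -52 to -42 and an amino acid response core at -112 to -105, and Chac1 holds that core alone, at -193 to -186.

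The full stress element was found in 9 of the 27 genes (Calr, Canx, Creld2, Derl3, Dnajc3, Hsp90b1, Hspa5, Pdia6 and Syvn1), against 0.113% of all 32851 promoters. By role these were 7 of the 12 chaperone targets with a promoter, 2 of the 6 degradation genes, 0 of the 6 PERK-arm genes and 0 of the 3 sensors. The second form stood in Herpud1 and in 0.0304% of all promoters. The amino acid response core stood in Atf3, Chac1 and Herpud1, against 3.45% of all promoters. The unfolded protein response element core was in 0.563% of all promoters and in 0 of the 27 genes. The chaperone genes were listed as known targets of XBP1 or ATF6, so their share with the stress element is not independent of the list. These matches describe letters in a window and say nothing of binding.

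The target of the knockdown was checked first. Smarca5 measured 906 and 855 in KD blastocysts, against 7000 and 8283 in NC blastocysts (log2 fold change -3.11, SE 0.12, adjusted p = 5.93e-04 with limma). In morulae it measured 501 and 470 with KD, against 9678 and 9760 with NC (log2 fold change -4.32, SE 0.13, limma adjusted p = 1.88e-04). Estimated depth ranged over libraries from 13957517 reads (NC blastocysts, replicate 1) to 23307769 reads (NC blastocysts, replicate 2). The embryo lineage genes Pou5f1, Cdx2 and Gata6 were present in all libraries, at 19699 or more, 2988 or more and 8066 or more. Present at both stages, they do not tell morulae from blastocysts. Across all genes, 12 of 13651 (0.0879%) passed an adjusted p of 0.05 in blastocysts and 1 of 13404 (0.00746%) in morulae.

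Most genes of the response were higher in KD than in NC libraries at both stages, by modest factors, and none passed the adjusted threshold. Because the list was chosen with earlier results known, the shares of all genes beside its counts describe it and do not test it. In blastocysts 29 of the 31 had a log2 fold change above 0, against 50.3% of all genes tested. Both KD libraries lay above both NC libraries for 24 of the 31, against 24.6% of all genes, and below for 1, against 24.9%. With Chac1 left out, 28 of 30 were above 0 and 23 of 30 were above without overlap. In morulae 26 of the 31 had a log2 fold change above 0, against 49.2%, with the KD libraries above for 18, against 20.7%, and below for 2, against 21.2%. The median log2 fold change of the 31 was 0.28 in blastocysts and 0.29 in morulae, and the median over all genes tested was 0.00 and -0.01.

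With limma, 0 of the 31 passed after Benjamini-Hochberg adjustment over all genes in either stage. An unadjusted p under 0.05 was met by 12 genes, all higher in KD, in blastocysts, where 8.83% of all genes met it in that direction and 8.73% in the other. In morulae 9 genes met it while higher in KD, against 5.16% of all genes, and Sel1l met it while lower, against 5.22%. The smallest adjusted p of the 31 was 0.0812 in blastocysts (Pdia6) and 0.362 in morulae. A single value cannot go below an exact two-sided permutation p of 0.333 with 2 libraries against 2.

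**Figure D1:**
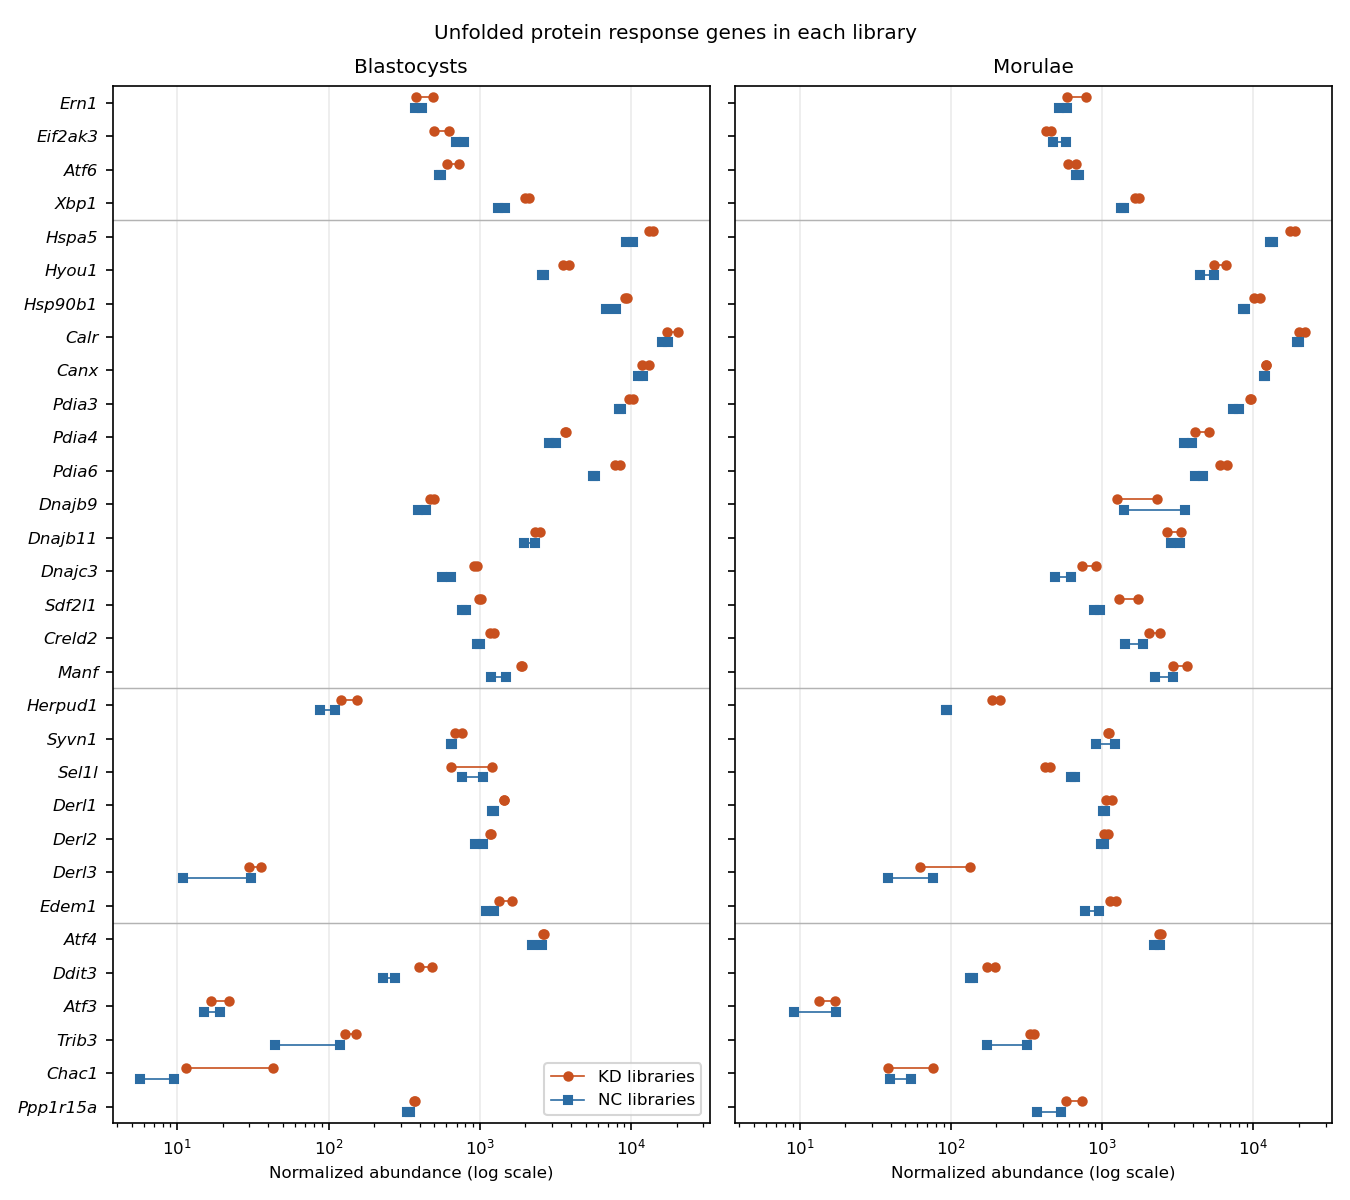
Normalized abundance (log scale) of the 31 genes in each library, ordered by role, with blastocysts and morulae in separate panels and KD beside NC. For Hspa5, Pdia6, Xbp1 and Dnajc3 the KD points lie above the NC points at both stages, and for Eif2ak3 they lie below.

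The 4 sensors and transducers did not move as one. Xbp1 (chromosome 11, 5520659 to 5525893, plus strand, mm10), the transcription factor gene whose product drives chaperone genes, measured 1999 and 2113 in KD blastocysts, against 1467 and 1324 in NC blastocysts. In morulae it measured 1642 and 1764 with KD, against 1400 and 1337 with NC. KD libraries were thus the higher ones at both stages, 1.47-fold in blastocysts (log2 fold change 0.56, SE 0.11, limma adjusted p = 0.101) and 1.24-fold in morulae (0.31, SE 0.14, adjusted p = 0.499). These are totals per gene, in which spliced and unspliced Xbp1 transcripts are not separated.

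Eif2ak3 (chromosome 6, 70844515 to 70905245), the PERK gene, was the member whose KD libraries lay below the NC libraries at both stages. It measured 494 and 626 in KD blastocysts, against 785 and 692 in NC blastocysts (log2 fold change -0.41, SE 0.17, adjusted p = 0.288 with limma). In morulae it measured 426 and 457 with KD, against 578 and 475 with NC (-0.25, SE 0.20, adjusted p = 0.718). Atf6 and Ern1, the genes of the other sensors, had KD above NC without overlap in a stage each. Atf6 measured 605 and 726 in KD blastocysts, against 554 and 536 in NC blastocysts, without overlap (limma adjusted p = 0.404), and overlapped in morulae, at 592 and 673 with KD, against 671 and 707 with NC. Ern1 measured 587 and 782 in KD morulae, against 585 and 520 in NC morulae, and 489 and 380 in KD blastocysts, against 375 and 415 in NC blastocysts, where the groups overlapped.

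Most of the 14 chaperones and folding enzymes were higher in KD than in NC libraries. All 14 had a log2 fold change above 0 in blastocysts, 12 of them without overlap of KD and NC and 10 with an unadjusted p under 0.05. In morulae 12 of the 14 were above 0, 10 without overlap and 7 with an unadjusted p under 0.05. Of all genes tested, 24.6% in blastocysts and 20.7% in morulae were above without overlap. An unadjusted limma p under 0.05 while higher in KD was met by 8.83% and 5.16% of all genes. The median log2 fold change of the 14 was 0.32 at both stages, ranging over 0.12 to 0.65 in blastocysts and -0.40 to 0.69 in morulae. Summed over the 14, normalized abundance was 90821 and 84125 in KD blastocysts, against 70068 and 72511 in NC blastocysts, while KD morulae had 95650 and 106079, against 82071 and 88406 in NC morulae. The KD sums were higher 1.23-fold in blastocysts and 1.18-fold in morulae.

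Hspa5 (chromosome 2, 34771970 to 34777547, plus strand, mm10), the BiP gene, measured 13952 and 13147 in KD blastocysts, against 9165 and 10341 in NC blastocysts. In KD morulae it measured 17365 and 18808, against 12797 and 13373 in NC morulae. The groups were well apart at both stages and the ratio of means was nearly equal, 1.39 in blastocysts (log2 fold change 0.48, SE 0.09, 95% interval 0.26 to 0.69, limma adjusted p = 0.0987) and 1.38 in morulae (0.47, SE 0.10, 0.22 to 0.72, adjusted p = 0.362). Hyou1, the large chaperone that recharges BiP with ATP, measured 3884 and 3545 in KD blastocysts, against 2588 and 2652 in NC blastocysts (log2 fold change 0.50, adjusted p = 0.0988 with limma). In morulae Hyou1 measured 5463 and 6589 with KD, against 4452 and 5455 with NC, where KD replicate 1 exceeded NC replicate 2 by a small margin. Hsp90b1, the HSP90 of the endoplasmic reticulum, was at 9072 and 9437 in KD blastocysts, against 6784 and 7959 in NC blastocysts, and at 10146 and 10969 in KD morulae, against 8839 and 8511 in NC morulae. Its ratio of means was 1.26 in blastocysts and 1.22 in morulae, without overlap at either stage.

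Among Pdia3, Pdia4 and Pdia6, protein disulfide isomerases that form and reshuffle disulfide bonds, Pdia6 (chromosome 12, 17266545 to 17284770, plus strand, mm10) had the largest difference. It measured 8387 and 7764 in KD blastocysts, against 5579 and 5734 in NC blastocysts, while KD morulae had 6042 and 6662, against 4652 and 4121 in NC morulae. The KD mean was 1.43-fold the NC mean in blastocysts (log2 fold change 0.51, SE 0.08, 95% interval 0.31 to 0.71, limma adjusted p = 0.0812) and 1.45-fold in morulae (0.53, SE 0.12, 0.24 to 0.83, adjusted p = 0.362). Pdia3, which works with the lectin chaperones, measured 10322 and 9643 in KD blastocysts, against 8615 and 8340 in NC blastocysts, while KD morulae had 9526 and 9640, against 7337 and 8041 in NC morulae. Pdia4 measured 3722 and 3634 in KD blastocysts, against 2862 and 3200 in NC blastocysts, and its KD libraries were also the higher ones in morulae. The ratios of means were 1.18 and 1.25 for Pdia3 and 1.21 and 1.25 for Pdia4, blastocysts before morulae. Calr and Canx, the lectin chaperones that hold glycoproteins, were among the most abundant and the least shifted: the ratio of means was 1.13 and 1.09 in blastocysts and 1.06 and 1.02 in morulae. The groups overlapped for Calr at both stages and for Canx in blastocysts.

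The BiP co-chaperones did not all go the same way. Dnajc3, a J-domain protein that also restrains PERK, measured 911 and 963 in KD blastocysts, against 557 and 644 in NC blastocysts (log2 fold change 0.65, SE 0.14, adjusted p = 0.114 with limma). In morulae Dnajc3 measured 732 and 916 with KD, against 620 and 487 with NC (0.58, SE 0.21, adjusted p = 0.445). Its KD libraries were higher at both stages, 1.56-fold and 1.49-fold. Dnajb9 and Dnajb11, the genes of other J-domain partners of BiP, were higher in KD blastocysts without overlap (ratios of means 1.16 and 1.13). In morulae Dnajb9 spread widely within each group, at 1253 and 2289 with KD, against 1402 and 3552 with NC (log2 fold change -0.40, SE 0.46). Dnajb11 in morulae had a log2 fold change of -0.03, which became 0.01 under quantile normalization and under upper-quartile rescaling. Sdf2l1, a partner of the J-domain proteins, measured 1298 and 1721 in KD morulae, against 889 and 964 in NC morulae (log2 fold change 0.69, SE 0.18, limma adjusted p = 0.376), and 1022 and 982 in KD blastocysts, against 804 and 760 in NC blastocysts. Creld2 and Manf encode stress-induced proteins of the endoplasmic reticulum. Creld2 was higher in KD libraries without overlap at both stages, with ratios of means of 1.23 in blastocysts and 1.36 in morulae. Manf measured 1861 and 1893 in KD blastocysts, against 1179 and 1486 in NC blastocysts, and its groups overlapped narrowly in morulae, at 2925 and 3611 with KD, against 2227 and 2933 with NC.

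**Figure D2:**
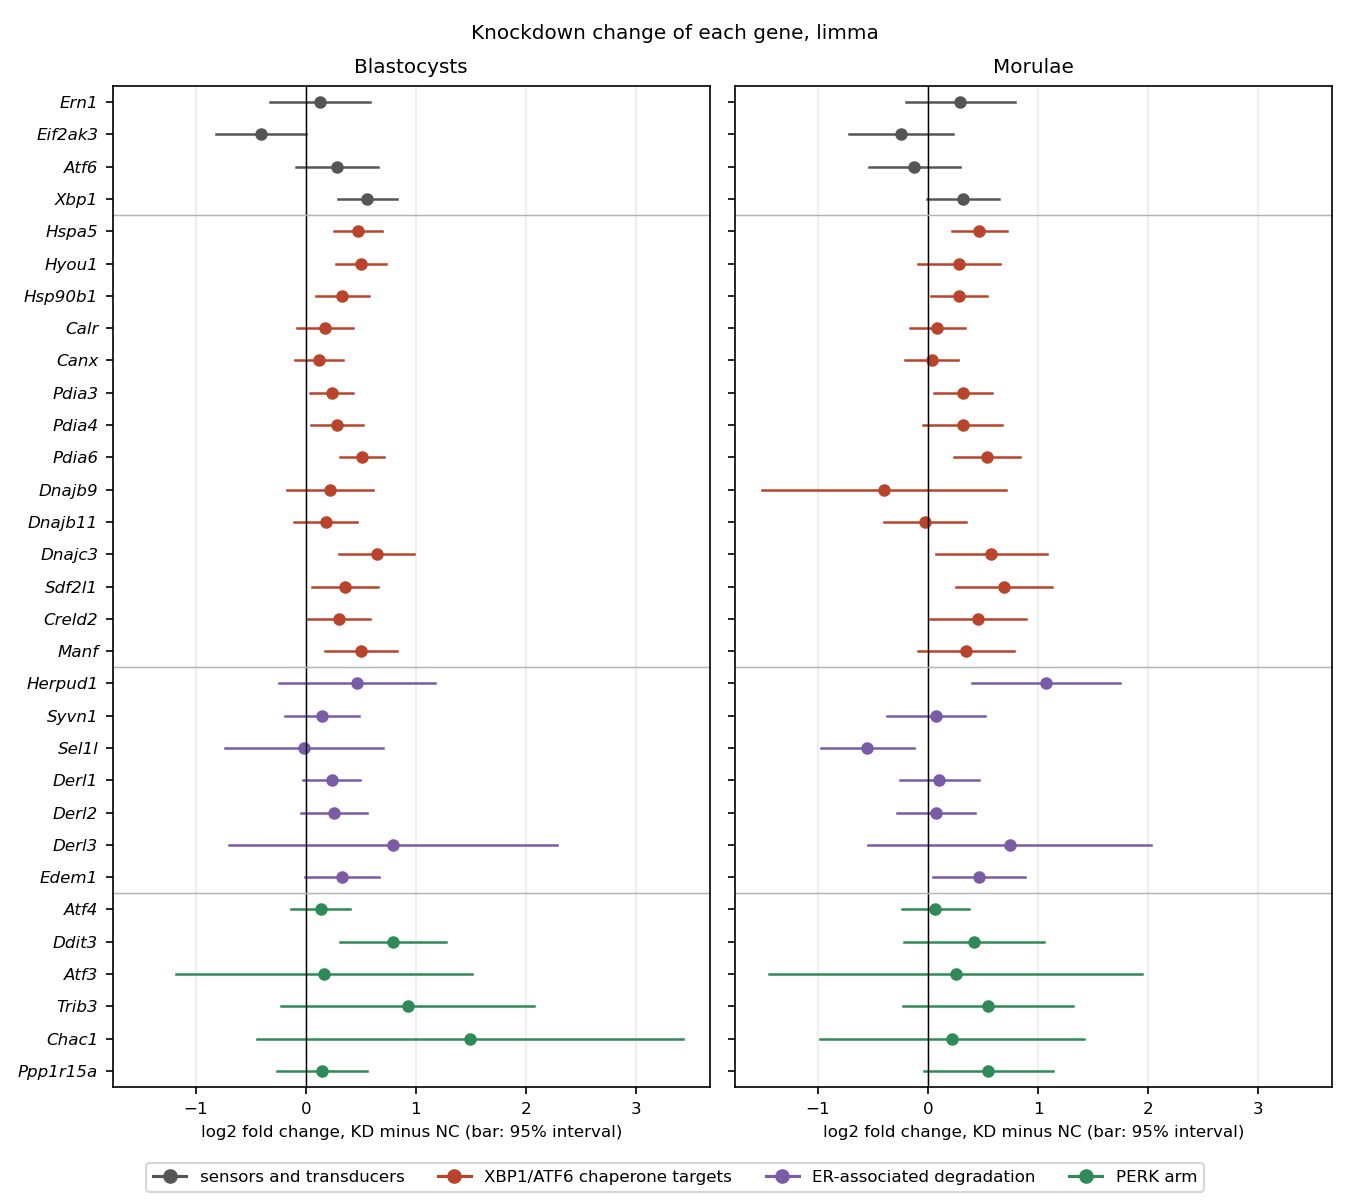
Log2 fold change, KD minus NC, of each gene with its 95% interval from limma, coloured by role, with blastocysts left of morulae. Chaperone targets lie to the right of 0 in blastocysts, while the intervals of Chac1, Trib3, Atf3 and Derl3 are the wide ones.

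The 7 genes that clear misfolded proteins were more mixed. In blastocysts 6 had a log2 fold change above 0 and 5 were above without overlap, against 24.6% of all genes. The median was 0.26. An unadjusted limma p under 0.05 was met by 0, while 8.83% of all genes met it when higher in KD. In morulae 6 were above 0, and the median was 0.10. Without overlap 3 were above and 1 below, against 20.7% and 21.2% of all genes. Herpud1 (chromosome 8, 94386438 to 94395377, plus strand, mm10), which organizes the degradation complex in the membrane, measured 186 and 211 in KD morulae, against 94.1 and 93.1 in NC morulae. That was a ratio of means of 2.12, the largest of the 31 in morulae (log2 fold change 1.07, SE 0.28, 95% interval 0.40 to 1.75, adjusted p = 0.374 with limma). In blastocysts Herpud1 measured 120 and 155 with KD, against 87.8 and 110 with NC, also without overlap (0.47, SE 0.30, adjusted p = 0.457).

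Sel1l (chromosome 12, 91806043 to 91849157, minus strand, mm10) and Syvn1 encode the core of the HRD1 ubiquitin ligase complex. Sel1l measured 422 and 455 in KD morulae, against 627 and 658 in NC morulae, so that KD libraries were the lower ones (log2 fold change -0.55, SE 0.18, 95% interval -0.98 to -0.13, adjusted p = 0.413 with limma). In blastocysts it ranged more within a group than between groups, at 643 and 1198 with KD, against 755 and 1045 with NC (-0.02, and 0.01 under quantile normalization). Syvn1 had ratios of means of 1.11 in blastocysts, without overlap, and 1.04 in morulae, with overlap. Edem1, a lectin that hands misfolded glycoproteins to degradation, was higher without overlap at both stages, at 1621 and 1340 in KD blastocysts, against 1246 and 1100 in NC blastocysts, and at 1237 and 1120 in KD morulae, against 948 and 765 in NC morulae. The derlins, membrane proteins of the export channel, had ratios of means of 1.18 (Derl1), 1.19 (Derl2) and 1.58 (Derl3) in blastocysts and of 1.08, 1.05 and 1.71 in morulae. Derl3 was scarce, between 10.9 and 134 in all libraries, and its groups overlapped at both stages.

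In morulae the 6 PERK-arm genes all had a log2 fold change above 0, with a median of 0.33. Without overlap 3 were above, against 20.7% of all genes. An unadjusted limma p under 0.05 was met by 0, while 5.16% of all genes met it when higher in KD. In blastocysts Chac1 entered only through its KD libraries and is therefore set apart. The other 5 had a log2 fold change above 0 there, and their median was 0.17, against 0.48 with Chac1 counted. Of these 5, 4 were above without overlap and 1 had an unadjusted limma p under 0.05. Of all genes, 24.6% were above without overlap and 8.83% met that p while higher in KD. Atf4, the transcription factor at the head of this arm and regulated largely in its translation, measured 2606 and 2644 in KD blastocysts, against 2201 and 2587 in NC blastocysts, while KD morulae had 2460 and 2361, against 2395 and 2212 in NC morulae. Its ratios of means were small, 1.10 and 1.05. Ddit3 (chromosome 10, 127290774 to 127296288, plus strand, mm10), the CHOP transcription factor gene, measured 394 and 480 in KD blastocysts, against 229 and 275 in NC blastocysts. That was 1.74-fold (log2 fold change 0.79, SE 0.20, 95% interval 0.31 to 1.28, adjusted p = 0.142 with limma). In morulae Ddit3 measured 174 and 195 with KD, against 141 and 134 with NC, 1.34-fold and also without overlap (0.42, SE 0.27, adjusted p = 0.64).

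Several other PERK-arm genes varied widely between libraries of a group. Trib3, a pseudokinase that acts as a brake on the arm, measured 151 and 128 in KD blastocysts, against 119 and 44.1 in NC blastocysts, while KD morulae had 333 and 352, against 173 and 318 in NC morulae. Its groups did not overlap, although a single NC library at each stage lay far below the other. Chac1 (chromosome 2, 119351229 to 119354381, plus strand, mm10), which degrades glutathione, measured 43.0 and 11.5 in KD blastocysts, against 9.44 and 5.67 in NC blastocysts. Its ratio of means, 3.60, was the largest of the 31 in blastocysts and rested mainly on KD replicate 1 (log2 fold change 1.49, SE 0.81, 95% interval -0.44 to 3.42, adjusted p = 0.396 with limma). In morulae Chac1 overlapped, at 38.5 and 76.3 with KD, against 39.7 and 54.7 with NC. Ppp1r15a, the GADD34 subunit that restores translation by dephosphorylating eIF2alpha, measured 577 and 734 in KD morulae, against 372 and 532 in NC morulae, and 374 and 369 in KD blastocysts, against 343 and 328 in NC blastocysts. Atf3, a stress transcription factor, stayed between 9.14 and 22.0 in all 8 libraries and overlapped at both stages.

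Set side by side, the chaperone targets and the PERK-arm genes both had medians above 0 at each stage. In blastocysts the share without overlap was 85.7% for chaperone targets and 4 of 5 for PERK-arm genes other than Chac1, and in morulae it was 71.4% for chaperone targets and 3 of 6 for PERK-arm genes. For degradation genes it was 71.4% in blastocysts and 42.9% in morulae, and for all genes tested 24.6% and 20.7%. The blastocyst medians were 0.32 for chaperone targets and 0.17 for PERK-arm genes, or 0.48 with Chac1, so their order turned on that gene. In morulae they were 0.32 and 0.33, and neither pair was tested. Chaperone targets with the stress element in the promoter window had a median of 0.33 in blastocysts and 0.45 in morulae (7 genes), and those with a searched window that lacked it had 0.24 and 0.32 (5 genes). These ranges overlapped, 0.12 to 0.65 against 0.18 to 0.36 in blastocysts and 0.03 to 0.58 against -0.40 to 0.69 in morulae.

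**Figure D3:**
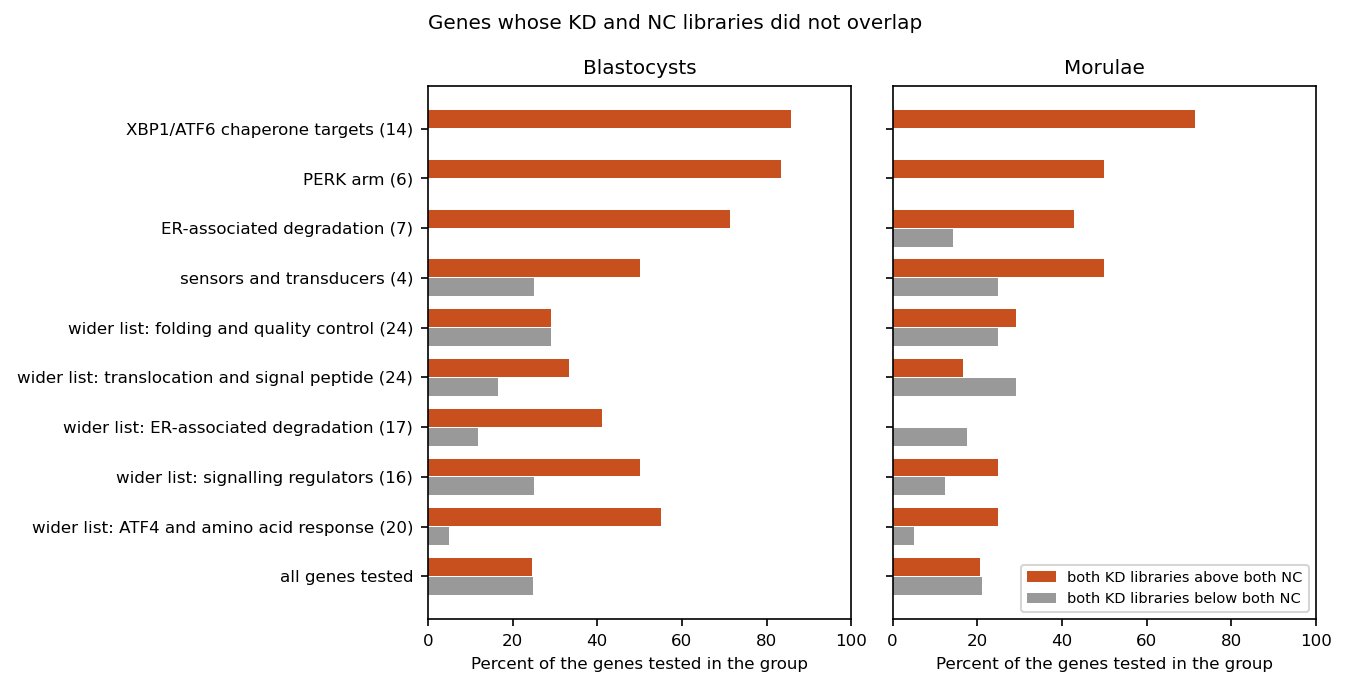
Percent of each role group, of the wider lists and of all genes tested whose KD libraries both lay above both NC libraries, with blastocysts left of morulae. Chaperone targets reach 85.7% and 71.4%, against 24.6% and 20.7% of all genes tested, and the PERK-arm bar in blastocysts counts Chac1.

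At both stages 16 of the 31 genes had KD libraries above NC libraries, which is 66.7% of the 24 in blastocysts and 88.9% of the 18 in morulae. Of the 12875 genes tested at both stages, 9.41% did so. The 16 were Xbp1, 9 chaperone targets (Hspa5, Hyou1, Hsp90b1, Pdia3, Pdia4, Pdia6, Dnajc3, Sdf2l1 and Creld2), the degradation genes Herpud1, Derl1 and Edem1, and the PERK-arm genes Ddit3, Trib3 and Ppp1r15a. The knockdown change was then compared between stages in a single limma fit of the 8 libraries. Of all genes 0 of 12875 (0.00%) passed the adjusted threshold for a difference between stages, 687 (5.34%) had an unadjusted p under 0.05, and 0 of the 31 did. The smallest p of the 31 was that of Atf6, whose change in blastocysts exceeded that in morulae by 0.41 on the log2 scale (SE 0.22, 95% interval -0.10 to 0.91, adjusted p = 0.921). For Chac1 the difference was 1.27 (-0.93 to 3.48) and for Herpud1 it was -0.60 (-1.50 to 0.29). The intervals of Chac1 and Herpud1 thus reach past 1 log2 unit, while that of Hspa5 ran from -0.30 to 0.32.

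**Figure D4:**
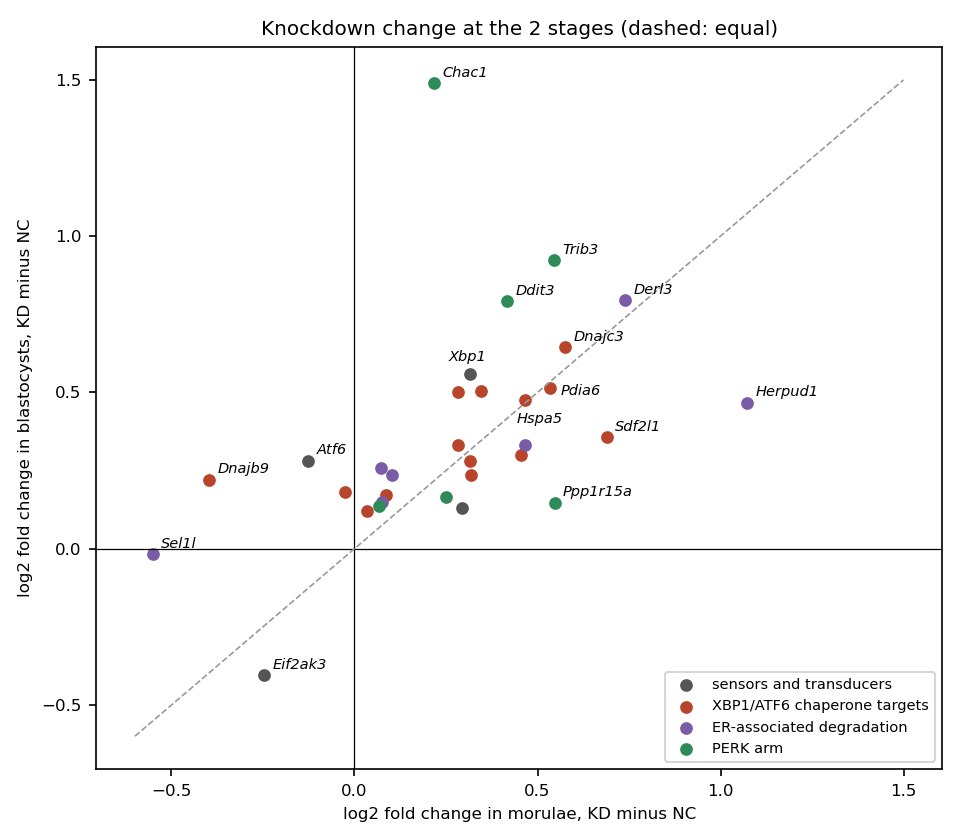
Log2 fold change, KD minus NC, in blastocysts (vertical axis) against morulae (horizontal axis) for the 31 genes, coloured by role, with some genes named and a dashed line of equal change. Hspa5, Pdia6 and Dnajc3 lie near the line, Chac1 lies above it and Herpud1 below it.

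Levels between genes were compared per kilobase of exon, within a stage. Calr was the most abundant, at 6547 per kilobase in KD blastocysts, against 5798 in NC blastocysts, and at 7247 in KD morulae, against 6822 in NC morulae. Hspa5 came next in KD blastocysts, at 3204 per kilobase, against 2306 in NC blastocysts, where Pdia3 (2701) and Canx (2440) stood above it. In KD blastocysts Hspa5 and Pdia3 (3180 per kilobase) differed by less than the spread between libraries. In morulae Hspa5 was second in both groups, at 4277 per kilobase with KD, against 3094 with NC. Atf4 was the most abundant PERK-arm gene, at 1113 per kilobase in KD blastocysts, against 1015 in NC blastocysts, and Atf3 and Chac1 were among the scarcest, with Atf3 at 8.99 per kilobase in KD blastocysts, against 7.94 in NC blastocysts, and Chac1 at 16.6, against 4.61.

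Outside these 31 genes, 101 further genes of the organelle and its stress pathways were described from lists made for this work, and 0 passed the adjusted threshold at either stage. Of these, 40.6% lay above without overlap and 17.8% below in blastocysts, against 24.6% and 24.9% of all genes. In morulae 19.8% lay above and 18.8% below, against 20.7% and 21.2%. The 24 further folding and quality control genes had a median log2 fold change of 0.05 in blastocysts. Of these 24, 7 lay above and 7 below without overlap, near the 24.6% and 24.9% of all genes. Among them P4hb, a disulfide isomerase, measured 8730 and 8594 in KD blastocysts, against 6740 and 7339 in NC blastocysts (log2 fold change 0.30, limma adjusted p = 0.157). Txndc5, of the same enzyme family, went the other way at both stages, at 748 and 684 in KD blastocysts, against 1452 and 1307 in NC blastocysts, and at 362 and 387 in KD morulae, against 874 and 617 in NC morulae. Mogs, which trims the first glucose from glycans, was also lower, at 430 and 363 in KD blastocysts, against 652 and 557 in NC blastocysts. Hspa13, a chaperone of the HSP70 family, measured 281 and 224 in KD morulae, against 158 and 133 in NC morulae.

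The 24 genes of translocation and signal peptide removal had a median of 0.05 in blastocysts and 0.04 in morulae. Tram1, a protein of the translocation channel, measured 1324 and 1363 in KD morulae, against 2322 and 2756 in NC morulae (log2 fold change -0.91, limma adjusted p = 0.316), and was lower in blastocysts too, at 1223 and 1390 with KD, against 2056 and 1688 with NC. Spcs3, a signal peptidase subunit, was lower at both stages, with log2 fold changes of -0.37 and -0.63. Ssr3 and Ssr2, of the translocon-associated complex, were higher, by 0.28 in blastocysts and by 0.26 in morulae. Opposite directions thus stood within one list.

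Among the 17 further degradation genes, with medians of 0.08 in blastocysts and 0.02 in morulae, Ube2j1, a ubiquitin-conjugating enzyme, was at 198 and 291 in KD blastocysts, against 431 and 380 in NC blastocysts. Selenos, a selenoprotein of the degradation complex, was at 1173 and 1100 in KD blastocysts, against 765 and 1005 in NC blastocysts. Ubxn4 had a log2 fold change of 0.27 in blastocysts, and Rnf139 one of -0.39 in morulae. Of the 16 signalling regulators, Rtcb, the ligase that joins the Xbp1 exons after IRE1 has cut them, measured 1144 and 1404 in KD blastocysts, against 1815 and 2035 in NC blastocysts (log2 fold change -0.60, limma adjusted p = 0.122). Tmbim6, an inhibitor of cell death in this membrane, measured 7211 and 6796 in KD blastocysts, against 5558 and 5440 in NC blastocysts (0.35, adjusted p = 0.124). Wfs1, a membrane protein of the reticulum, had a log2 fold change of 0.58 in morulae. The kinases Eif2ak2 and Eif2ak4, which also phosphorylate eIF2alpha, went in opposite directions, with 32.6 and 56.3 in KD blastocysts, against 9.65 and 22.3 in NC blastocysts, for Eif2ak2, and 234 and 167 in KD morulae, against 368 and 309 in NC morulae, for Eif2ak4.

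The 20 genes of the ATF4 and amino acid response, which the PERK arm shares with other stresses, had a median of 0.35 in blastocysts and 0.12 in morulae. Without overlap 11 lay above and 1 below in blastocysts, against 24.6% and 24.9% of all genes, and 5 above and 1 below in morulae, where 5 of 20 is near the 20.7% of all genes. Psat1, a serine synthesis enzyme, measured 6507 and 5891 in KD blastocysts, against 3946 and 3850 in NC blastocysts (log2 fold change 0.67, limma adjusted p = 0.0593). Vegfa, a growth factor gene that ATF4 can act on, measured 253 and 236 in KD blastocysts, against 92.2 and 89.9 in NC blastocysts (1.41, adjusted p = 0.0850). Shmt2, the mitochondrial serine hydroxymethyltransferase, was lower, at 682 and 734 in KD blastocysts, against 1195 and 1354 in NC blastocysts (-0.84, adjusted p = 0.0747). In morulae the smallest p-values of this list were those of Pck2 (447 and 385 with KD, against 247 and 265 with NC), Cebpb (596 and 515, against 339 and 384) and Gdf15 (72.1 and 56.2, against 12.3 and 34.9).

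Markers of cell types were also read, and 0 of those tested passed the adjusted threshold at either stage. In blastocysts 14 of 18 primitive endoderm markers had a log2 fold change above 0, against 50.3% of all genes tested. Without overlap 9 were above, against 24.6% of all genes. Those below 0 included Gata6 (-0.15) and Hnf4a (-0.47), both with overlap of KD and NC. Like that of the 31 genes, the median of the 18 markers was 0.28. Their summed level was 84521 and 95656 in KD blastocysts, against 74980 and 81706 in NC blastocysts. In morulae 12 of 17 were above 0, against 49.2% of all genes tested. Without overlap 9 were above and 2 below, against 20.7% and 21.2% of all genes. The median was 0.18, and the summed level was 45839 and 53099 with KD, against 46310 and 43709 with NC. Sox17, which defines this lineage, was at 186 and 72.7 in KD morulae, against 16.1 and 0 in NC morulae, and so passed the minimum only through KD. Its direction was thus fixed by that minimum, and it is counted in the 17, in the 9 above and in the median. Serpinh1, a collagen chaperone, was at 336 and 342 in KD morulae, against 57.6 and 37.6 in NC morulae, Dkk1 at 150 and 64.1, against 18.5 and 7.23, and Pdgfra at 1179 and 809, against 357 and 547. Hnf4a went the other way in morulae without overlap, at 28.7 and 26.3 with KD, against 60.3 and 60.3 with NC. Gata6 overlapped in morulae. Sox7 was at 0 in 1 KD and 1 NC morula library, and Foxa2 was not analysed there. Trophectoderm markers were higher in KD blastocysts for 7 of 9 genes, with sums of 102061 and 115326, against 91197 and 90471 in NC blastocysts, and for 4 of 9 in morulae, with sums of 31638 and 30154 with KD, against 35974 and 32797 with NC. Epiblast markers were lower for 8 of 9, with sums of 37088 and 39603 in KD blastocysts, against 41961 and 46060 in NC blastocysts, and for 6 of 9 in morulae, with sums of 43813 and 40763 with KD, against 42075 and 44464 with NC. Beside these counts, 50.3% of all genes tested in blastocysts and 49.2% in morulae had a log2 fold change above 0. Markers of cumulus, granulosa and stromal cells were scarce, with sums of 155 and 387 in KD blastocysts, against 170 and 304 in NC blastocysts, and of 265 and 272 in KD morulae, against 87.2 and 186 in NC morulae, with Inha at 0 in some libraries of both stages, and Fshr, Cyp19a1, Has2 and Ptx3 were not analysed here. Blood markers summed to at most 96.5 in KD libraries, against 181 in NC libraries, and oviduct and uterine markers to at most 91.4, against 51.9. Transcripts of the mitochondrial genome held 3.21% and 3.24% of normalized abundance in KD blastocysts, against 3.14% and 3.02% in NC blastocysts, while KD morulae had 2.29% and 2.48%, against 2.24% and 2.61% in NC morulae. The part of these cell types and transcripts in the levels of the 31 genes was not tested.

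Libraries of one group also differed from each other in these genes. In morulae 27 of the 31 were higher in KD replicate 2 than in KD replicate 1, and 20 of the 31 were higher in NC replicate 2 than in NC replicate 1, against 50.6% and 49.8% of all genes tested. In blastocysts the counts were 12 and 16 of the 31. Without NC replicate 1 the median log2 fold change of the 31 in morulae was 0.15, and without KD replicate 2 it was 0.19. The median of the PERK-arm genes was 0.12 in morulae without NC replicate 1. In blastocysts, with Chac1 counted, it was 0.29 without NC replicate 2, and it was 0.17 with Chac1 left out and all libraries kept. The median of the chaperone targets in morulae was 0.21 without KD replicate 2. The count of genes with KD above NC in morulae was then 20 and 19, against 36.3% and 34.4% of all genes. In blastocysts that count lay between 25 and 29 with any library left out, against 36.9% to 37.7% of all genes. Leaving out a library cannot lower such a count, since fewer libraries have to be apart.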

How the data were processed

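Polyadenylated RNA of 8 mouse embryo libraries (20 embryos each) was sequenced as read pairs of 150 bases after 12 to 15 PCR cycles, per the labels' protocols. What the authors deposited is a normalized signal for every gene, with 1 table a stage. Salmon 0.14.1, DESeq2 and mm10 are named in the submitters' processing notes, with no role given. Column sums were 18896774 to 19247880 in blastocysts and 17151880 to 17823304 in morulae. For genes seen in more than 1 library, only 5.33% to 27.5% of low values were whole multiples of the value of 1 read (tolerance 0.01), so no count test was run. Depth was estimated from genes found in a single library.

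Sample titles gave the groups. The labels do not state that replicate libraries stem from separate litters or days, so every p-value reflects the spread of these libraries alone and may be technical. Symbols matched 98.9% of Ensembl IDs, and gene positions and exon lengths are from GENCODE vM21 (mm10). Genes with a mean of at least 10 over the 4 libraries of a table were tested on the scale of log2(value + 1), KD minus NC, using limma 3.58.1 under R 4.3.3 (eBayes with trend). Benjamini-Hochberg adjustment ran over all genes, with 0.05 as the threshold. On that scale the change of low genes is understated, and the ratios given are of group means. The method was tested on simulated data with changes of 2-fold and 4-fold. Of the 2-fold changes it recovered 61% in blastocysts and 47% in morulae. False calls were 14 of 150 in blastocysts and 8 of 133 in morulae. Smaller changes, as most of the 31 genes had, were not simulated. Genes named from the 101 further genes are, of each list and stage, up to 3 with the smallest p. Single markers of cell types were named without this limit. The 31 genes and the lists were chosen with earlier results of these data known. Alternatives were other pseudocounts, filters and scalings, no trend, a replicate block, a single fit of all libraries, and leaving out each library.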

Additional observations from a re-analysis of the deposited data

How the results depend on the processing

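Of the 31 genes, 0 passed the adjusted threshold at either stage with another pseudocount, filter or scaling, without the trend, or with a library left out, except under the replicate block. Labels do not say that equal numbers pair libraries, and replicate differences correlated at 0.146 in blastocysts and 0.297 in morulae. With the block, 9 of the 31 passed in blastocysts (Xbp1, Hspa5, Hyou1, Hsp90b1, Pdia3, Pdia6, Dnajc3, Manf and Ddit3) and 6 in morulae (Hspa5, Pdia3, Pdia6, Sdf2l1, Creld2 and Herpud1), and of all genes 1208 and 892. In blastocysts the 12 genes called became 27 without a filter, 0 without the trend (2020 at an unadjusted p under 0.05) and 1 to 7 with a library left out. In morulae the 1 gene called became 0 without the trend (1261 at an unadjusted p under 0.05), 18 in the fit of all 8 libraries and 1 to 4 with a library left out, and for the difference between stages 0 to 2 were called. The cause was not tested.

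Leaving out a library moved the median of the 31 over 0.26 to 0.31 in blastocysts and 0.15 to 0.39 in morulae, that of the chaperone targets over 0.30 to 0.34 and 0.21 to 0.44, and that of the PERK-arm genes over 0.29 to 0.50 and 0.12 to 0.56. These PERK-arm medians count Chac1. With Chac1 left out after seeing the data and all libraries kept, the PERK-arm median in blastocysts was 0.17. The count without overlap, an alternative also chosen after seeing the data, was 25 to 29 in blastocysts and 19 to 24 in morulae. With a library left out, 2 libraries are set against 1, so this count cannot fall below that of all 4. The share of all genes rose too, from 24.6% to between 36.9% and 37.7% in blastocysts. In morulae that share rose from 20.7% to between 34.2% and 36.3%. Signs changed with a library left out for Ern1 (-0.051 to 0.31), Sel1l (-0.47 to 0.43) and Atf3 (-0.023 to 0.36) in blastocysts, and in morulae for Syvn1 (-0.14 to 0.29), Atf3 (-0.18 to 0.68), Chac1 (-0.27 to 0.70), Dnajb9 (-1.07 to 0.27) and Dnajb11 (-0.18 to 0.13). Under quantile normalization Sel1l in blastocysts was 0.00953 and Dnajb11 in morulae 0.0148, which was 0.0118 under upper-quartile rescaling. Since whole reads were not recovered, depth gives no interval here, and the error given is the spread between 2 libraries a group.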
